A study of Saccharomyces cerevisiae with 4 samples.

Results

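Invertase and the galactose pathway of Saccharomyces cerevisiae are described here by 8 genes: SUC2, which encodes invertase, and GAL1, GAL2, GAL3, GAL4, GAL7, GAL10 and GAL80. They were taken by name and open reading frame, and 9 of the 7519 probe sets in the deposited tables belong to them, because SUC2 has 2 probe sets. Of the 8 genes, 7 were among the 5130 genes tested. GAL2 was not, since its probe set was called Present (signal above background) on 1 of the 4 arrays, and at least 2 were required. RNA came from the haploid laboratory strain BY4741, a background that carries deletions in several biosynthetic genes, so all 4 samples share them. The quinine group (2 samples) had been held for 15 min in fresh medium with quinine, an antimalarial alkaloid, at 1 g/L, brought in from an ethanol solution at 0.7% by volume. The control group (2 samples) had been held for the same time in the medium without the drug. No source used here says if controls also received ethanol, so the drug and its solvent cannot be told apart. Cells had been growing in mid-exponential phase in MM4 medium, whose carbon source the labels do not name.

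Invertase is secreted by yeast and splits sucrose and raffinose outside the cell. Galactose is brought in by the permease Gal2 and turned into glucose 1-phosphate by the enzymes Gal1, Gal7 and Gal10. The activator Gal4 switches on the genes of the permease and the enzymes, the repressor Gal80 holds Gal4 inactive, and Gal3 binds galactose and lifts the hold of Gal80. Both SUC2 and the GAL genes are repressed when glucose is plentiful, in large part through the repressor Mig1, which also acts on GAL4, and Snf1 kinase opposes that repression.

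The 4 arrays had median signals of 636 and 596 in quinine samples and 621 and 626 in control samples. The median gap between the arrays of a group, gene by gene, was 0.20 log2 units in quinine samples and 0.21 in control samples. All 7 listed genes of mating type a, that of BY4741, passed the filter on Present calls, but so did 3 of the 4 listed genes of the opposite type. Of these, STE3 and SAG1 were called Present on all 4 arrays. STE3 had signals of 45.2 and 33.0 in quinine samples and 47.6 and 27.4 in control samples. Those of SAG1 were 653 and 656 in quinine samples and 527 and 600 in control samples. Present calls alone thus did not test the mating type. Signals are not compared between probe sets, because each binds its own RNA with its own strength. It is not stated that replicates came from separate cultures, so a p value reflects the spread of these 4 samples, possibly technical.

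With quinine, the transcripts of the activator gene GAL4 and of SUC2 were higher than in control cells, by 2.22-fold and 1.66-fold. The genes of the galactose enzymes and of the other regulators had smaller fold changes, between 0.86-fold and 1.31-fold, and GAL2 overlapped between groups. None of the 7 tested members passed an adjusted p of 0.05 over all genes in limma (a linear model that shares the spread across genes). That threshold was passed by 1 gene of 5130, which is 0.0195%, and that gene was MAL33, of the maltose activator family, at 10.7-fold, with an adjusted p of 0.0488. At an unadjusted p under 0.05, 2 of the 7 members, GAL4 and SUC2, were higher and 0 were lower, against 6.32% of all genes higher and 12% lower, or 18.3% together. The log2 fold change was above 0 in 6 of the 7 members and in 46.7% of all genes. In bulk RNA, a change in every cell and a change in the share of cells that express a gene cannot be told apart.

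**Figure D1:**
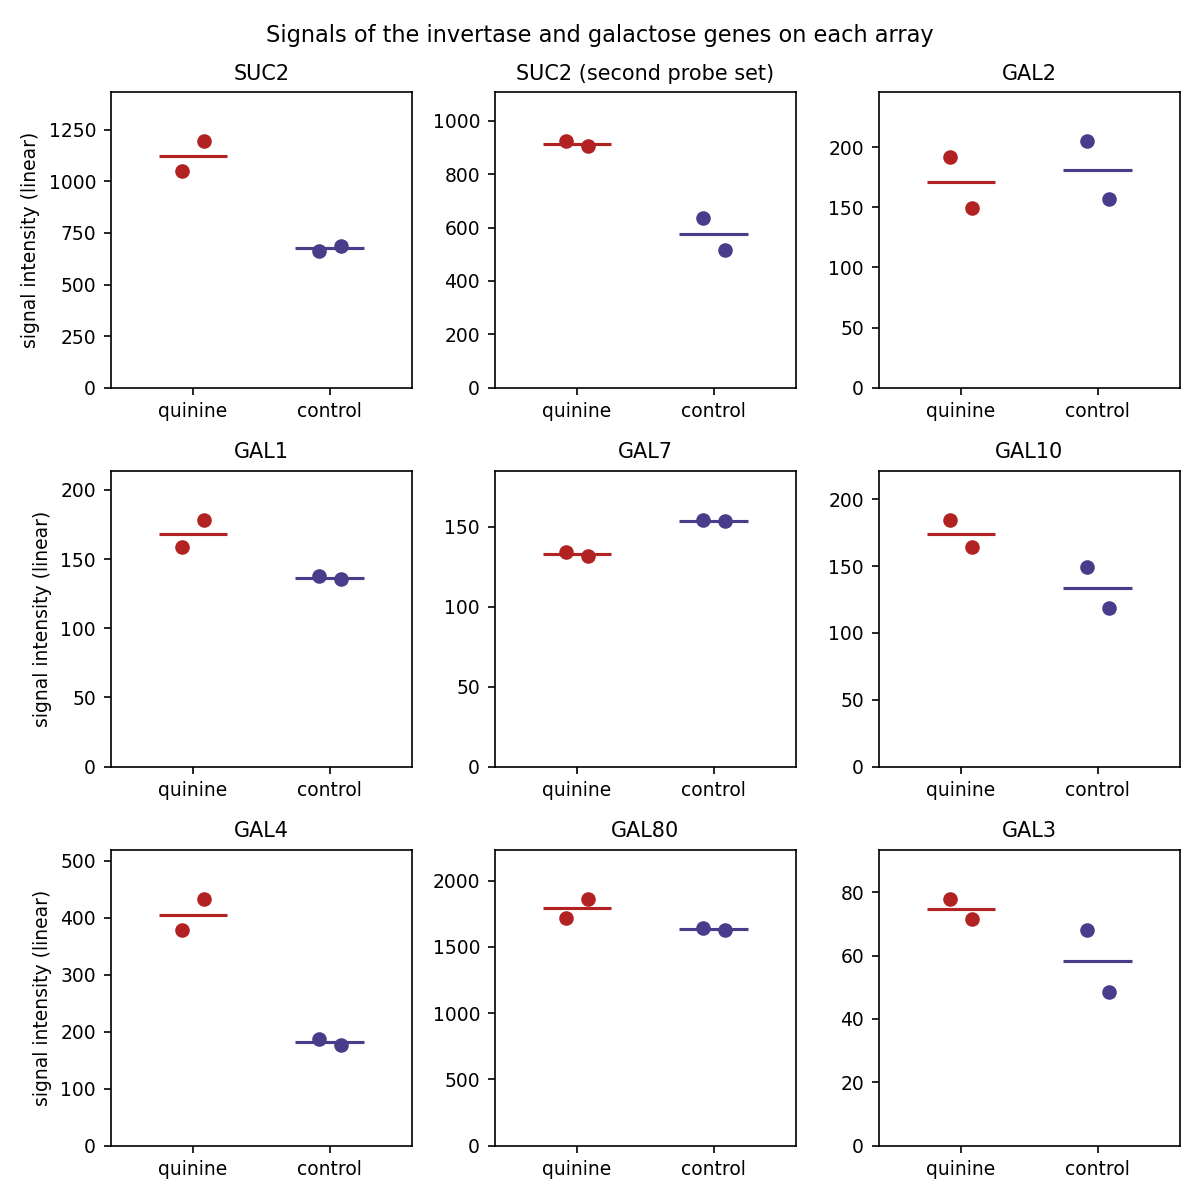
Deposited signal intensity (linear vertical axes that start at 0) of the 9 probe sets on the 2 quinine arrays (red, left) and the 2 control arrays (dark blue, right); points are arrays, replicate 1 left of replicate 2, and lines are group means. The groups are apart for both SUC2 probe sets (905 to 1194 with quinine, 515 to 688 in controls) and for GAL4 (379 and 432 with quinine, 187 and 177 in controls), and overlap for GAL2.

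SUC2 was read by 2 probe sets, and both were higher with quinine. The main probe set, listed under the open reading frame YIL162W, had signals of 1049 and 1194 in quinine samples, against 663 and 688 in control samples. The second probe set, which the array lists under SUC4, another name of the invertase gene family, had signals of 924 and 905 in quinine samples, against 634.5 and 515 in control samples. On both, the lower quinine array lay above the higher control array, by a ratio of 1.53 on the first and 1.43 on the second.

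For the main probe set of SUC2, the mean signal was 1121 ± 103 in quinine samples and 675 ± 17.6 in control samples (SD, n = 2 each). In limma this was a log2 fold change of 0.73 ± 0.17 (SE) with a 95% interval from 0.31 to 1.15, at an unadjusted p of 0.00533 and an adjusted p of 0.123. SUC2 was thus at rank 172 from the highest log2 fold change among the tested genes, and 3.33% of genes had a higher one. A limma fit over all 7249 probe sets that passed the filter was added after the data were seen. There the second probe set had a log2 fold change of 0.68 ± 0.19 (SE), at an adjusted p of 0.257, and the main one 0.73 ± 0.17 (SE), at an adjusted p of 0.228. The 2 probe sets target the same gene in this strain and are not independent replicates. The name of the main probe set carries the array's mark for probes shared between related sequences.

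GAL2 encodes the galactose permease, which also carries glucose. Its signals were 192 and 149 in quinine samples, where 1 array was called Present, against 205 and 157 in control samples, where neither was. The groups overlapped. With no filter on Present calls its log2 fold change was -0.08, with a 95% interval from -0.63 to 0.46, at an adjusted limma p of 0.881. As the control signal was not called above background, GAL2 gives no measured fold.

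The 3 genes of the galactose enzymes lie side by side in the reference gene order, GAL7 then GAL10 then GAL1, and their log2 fold changes differed in sign. GAL1, whose product galactokinase phosphorylates galactose, had signals of 159 and 178 in quinine samples, against 137 and 135 in control samples. GAL10, which encodes the epimerase that interconverts UDP-galactose and UDP-glucose, had signals of 184 and 164 in quinine samples, against 149 and 119 in control samples. For both genes the 2 quinine arrays lay above the 2 control arrays.

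GAL7, which encodes the uridylyltransferase that joins these steps, had the opposite sign, with signals of 134.5 and 132 in quinine samples, against 154.2 and 153.9 in control samples. It was the only member of the 8 with both quinine arrays below both control arrays, although its probe set was called Present on 1 array of each group. The log2 fold changes were 0.30 ± 0.17 for GAL1, 0.39 ± 0.20 for GAL10 and -0.21 ± 0.16 for GAL7 (SE). None passed the test, with adjusted p values in limma of 0.403 for GAL1, 0.354 for GAL10 and 0.556 for GAL7. The 95% intervals allow a change of GAL1 between 0.92-fold and 1.65-fold, of GAL10 between 0.94-fold and 1.82-fold, and of GAL7 between 0.65-fold and 1.14-fold, and all 3 hold 1. The reference table lists a further RNA that overlaps GAL10 and GAL1. By the strand letters of the names it is antisense to GAL10 and on the same strand as GAL1. Its part in these signals was not tested.

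The 2 genes that flank this cluster, KAP104 beside GAL7 and FUR4 beside GAL1, did not pass the test, with log2 fold changes of -0.35 ± 0.19 for KAP104 and 0.34 ± 0.24 for FUR4 (SE). Over the 10 tested neighbours of all 8 members, which are not members themselves, the median log2 fold change was 0.12, with a range from -0.62 to 0.34. The lowest was that of SMU2, next to SUC2, with signals of 257 and 271 in quinine samples, against 391 and 420 in control samples. SMU2 and SUC2 thus had log2 fold changes of opposite sign. The adjusted p of SMU2 was 0.145 in limma.

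**Figure D2:**
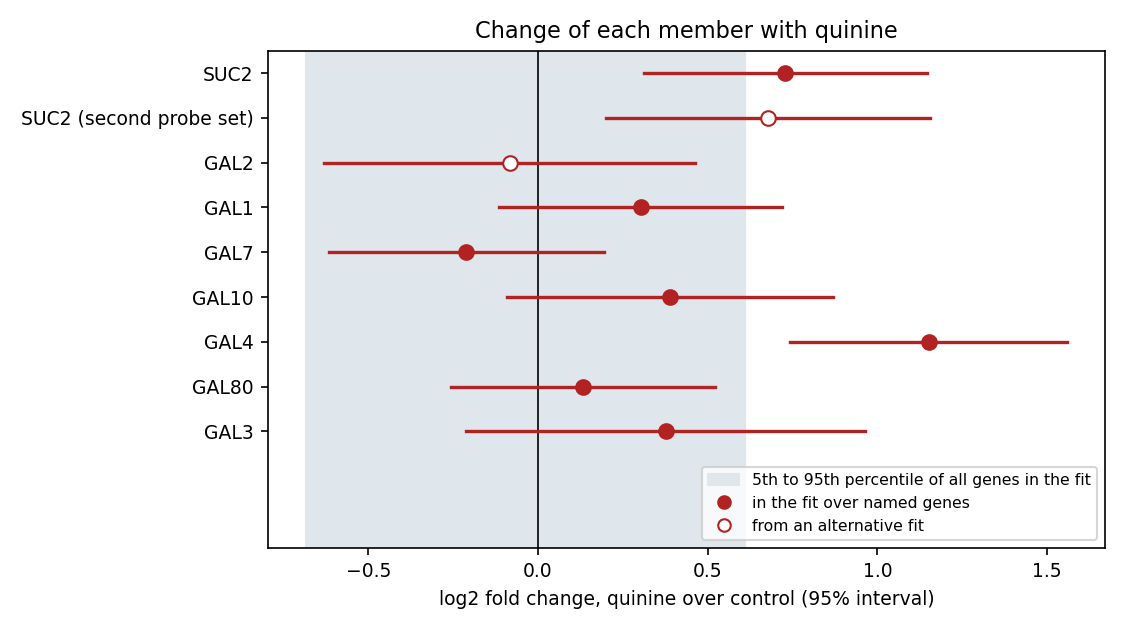
Log2 fold change of quinine over control (horizontal axis) for each probe set of the 8 genes, with 95% intervals from limma as bars; filled points come from the fit over 5130 named genes, open points from alternative fits, and the shaded band is the range from the 5th to the 95th percentile of all tested genes (-0.68 to 0.61). GAL4 at 1.15 and SUC2 at 0.73 lie above the band, and the intervals of the other members include 0.

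GAL4, the activator of the pathway, showed the largest difference of the 8 genes. Its signals were 379 and 432 in quinine samples, against 187 and 177 in control samples. Every quinine array was at least 2.02 times the higher control array. The probe set was called Present on both quinine arrays and on 1 of the 2 control arrays, so 1 of the 2 control values was not above background by that call.

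The mean signal of GAL4 was 405.5 ± 37.8 in quinine samples and 182 ± 7.01 in control samples (SD, n = 2 each). This gave a log2 fold change of 1.15 ± 0.17 (SE), and its 95% interval ran from 0.74 to 1.56, which is 1.67-fold to 2.95-fold. Its unadjusted p was 4.83e-04 and its adjusted p 0.0775 in limma, and 1.29% of the tested genes had a higher log2 fold change. With each array left out in turn, which leaves 1 sample in a group, the log2 fold change of GAL4 lay between 1.06 and 1.25. The reference table lists an antisense RNA across GAL4 as well, and its part was not tested.

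The genes of both regulators that act on Gal4 had smaller log2 fold changes than GAL4. GAL80, the repressor gene, had signals of 1721 and 1860 in quinine samples, against 1640 and 1624 in control samples. The groups did not overlap, but the lower quinine array was only 1.05 times the higher control array. The log2 fold change of GAL80 was 0.13 ± 0.16 (SE), with a 95% interval from -0.26 to 0.52, at an adjusted limma p of 0.712.

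GAL3, the galactose sensor gene and a paralog of GAL1, had signals of 77.8 and 71.7 in quinine samples, against 68.1 and 48.6 in control samples. The quinine arrays were both above the control arrays, and the control arrays differed from each other by more than the quinine arrays did. Its log2 fold change was 0.38 ± 0.24 (SE), with a 95% interval from -0.21 to 0.96, at an adjusted limma p of 0.461. It was called Present on both quinine arrays and 1 control array, and the log2 fold change was 0.62 with control replicate 1 left out and 0.13 with control replicate 2 left out. Whether the probes of GAL1 and GAL3 bind each other's RNA was not tested.

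Differences within the pathway were set side by side on each array. Relative to its mean in control samples, the log2 ratio of GAL4 to GAL80 was 0.98 and 1.06 in quinine samples, against 0.03 and -0.03 in control samples. The ratio of GAL4 to GAL1 was 0.84 and 0.86 in quinine samples, against 0.03 and -0.03 in control samples, and the ratio of GAL4 to GAL3 was 0.62 and 0.93, against -0.20 and 0.20. In all 3 ratios the quinine arrays lay above the control arrays. With 2 arrays against 2, an exact two-sided permutation test cannot go below 0.333, which is the p of each of the 3, and no other test of these ratios was run. The 95% interval of GAL4 lies above those of GAL80 and GAL1, whose upper ends are 0.52 and 0.72, and overlaps those of GAL10 and GAL3.

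Over the 8 genes, the 2 quinine arrays lay above the 2 control arrays in 6, below them in 1 (GAL7) and overlapped in 1 (GAL2). Over all tested genes, 19.8% lay above and 29.8% below, or 49.6% together. The median log2 fold change of the 7 tested members was 0.38, and that of all 5130 genes -0.02. Leaving out control replicate 1 made the median of the members 0.55, and leaving out control replicate 2 made it 0.22. In both cases the middle gene was GAL10.

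**Figure D3:**
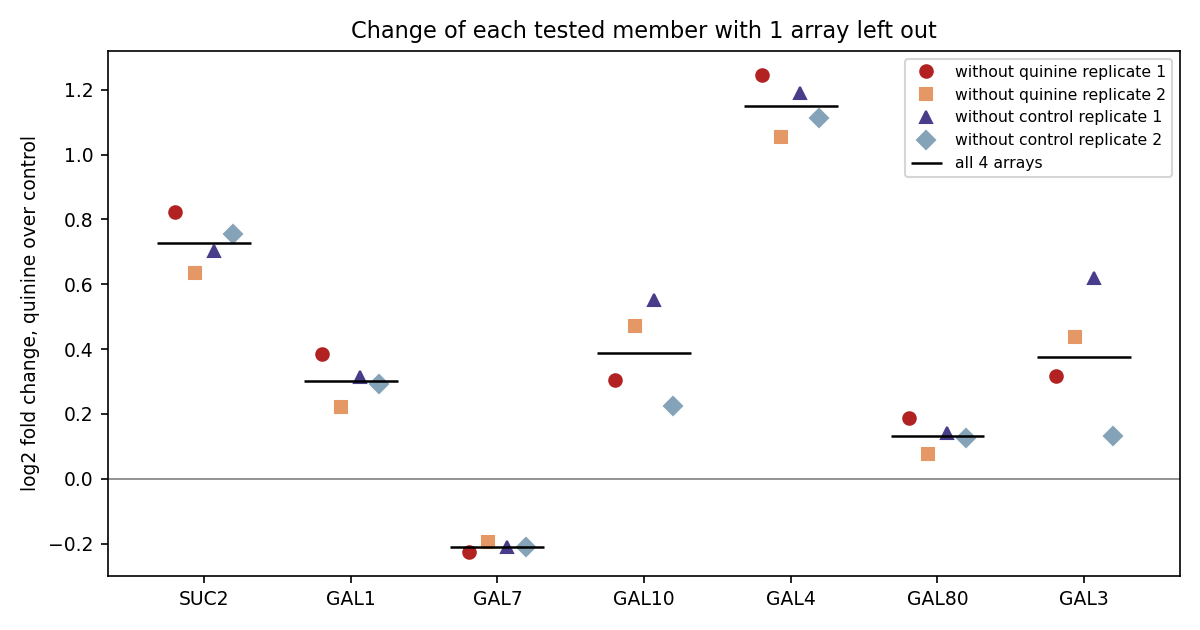
Log2 fold change of quinine over control (vertical axis) of the 7 tested members with each array left out in turn (symbols) and with all 4 arrays (black lines). GAL4 stays between 1.06 and 1.25 and SUC2 between 0.64 and 0.82, and GAL3 ranges from 0.13 to 0.62. The signs could not change here, because none of the 7 overlapped between groups.

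In the authors' deposited table, 3 of the 9 probe sets carry the authors' mark, those of GAL4 and both of SUC2, against 10.3% of all 7519 probe sets marked, or 4.07% marked as higher. No marked probe set in the authors' deposited table has a lower bound under 1.2 in size. The authors' deposited table gives GAL4 a fold of 2.23 with bounds of 1.94 and 2.54, and the main SUC2 probe set a fold of 1.67 with bounds of 1.47 and 1.87. In the authors' deposited table the lower bounds of GAL1, GAL10 and GAL80 were 1.10, 1.05 and 1.01, below the size of every marked one. GAL7 stands in the authors' deposited table with a signed fold of -1.16, the minus sign marking a lower signal with quinine.

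Genes whose 4 signals moved most like those of SUC2 and GAL4 were found by the Euclidean distance between log2 signals over the 4 arrays, after each gene's mean was taken off. The 3 closest to SUC2 were EST3, NCA2 and YKL091C, at distances of 0.11, 0.11 and 0.12. The 3 closest to GAL4 were SUR1, RRT6 and RMR1, at distances of 0.13, 0.15 and 0.15. SUR1, for a step of sphingolipid synthesis, had signals of 2625 and 2742 in quinine samples, against 1150 and 1129 in control samples. With 4 arrays such a likeness is a description of these samples. None of the 6 is another member of the pathway.

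In a list of 7 genes for phosphoglucomutases, UDP-glucose synthesis and hexose kinases, all 7 had a positive log2 fold change, with a median of 0.58. At an unadjusted p under 0.05, 4 were higher and 0 lower, against 6.32% and 12% of all genes, and 0 passed the adjusted threshold. The glucokinase gene GLK1 had signals of 6743 and 4818 in quinine samples, against 3953 and 1819 in control samples. The hexokinase gene HXK1 had signals of 2933 and 2131 in quinine samples, against 1732 and 809 in control samples. For both the quinine arrays lay above the control arrays, but the 2 control arrays differed from each other by more than 2-fold. HXK2, the main hexokinase gene and part of glucose repression, and UGP1, which supplies the UDP-glucose that Gal7 uses, were higher by 0.48 ± 0.14 and 0.38 ± 0.13 on the log2 scale (SE). The phosphoglucomutase genes PGM1 and PGM2, whose products link the end of the galactose pathway to glycolysis, had log2 fold changes of 0.05 and 0.58, and both overlapped between groups.

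Among 5 further genes known to be bound by Gal4, 0 passed the adjusted threshold. At an unadjusted p under 0.05 there was 1, beside 18.3% of all genes in either direction. That gene was MTH1, better known as a regulator of glucose transporter genes, with signals of 970 and 558 in quinine samples, against 128 and 41.7 in control samples. All its quinine arrays were far above its control arrays, 1 of which was called Present. The other genes, GCY1, PCL10, FUR4 and PGM2, overlapped between groups, and their log2 fold changes lay between 0.01 and 0.58.

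**Figure D4:**
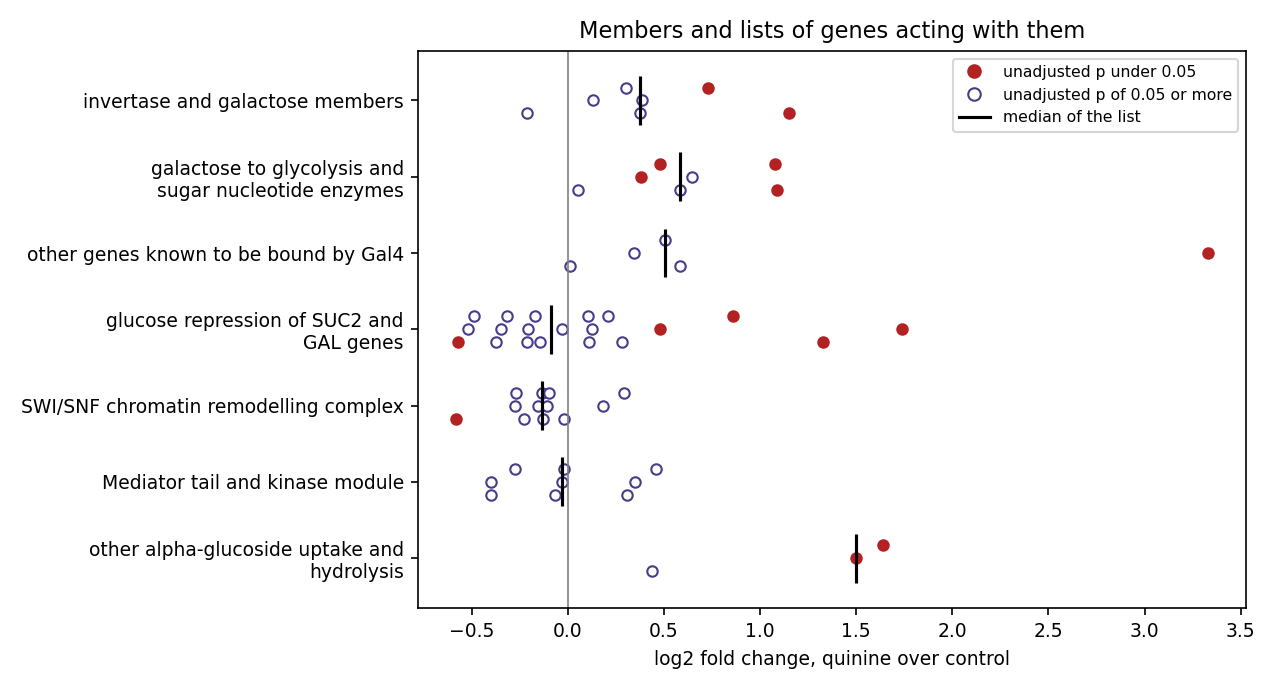
Log2 fold change of quinine over control (horizontal axis) of the 7 tested members and of 6 lists of genes that act with them; points are genes (filled where the unadjusted p in limma is under 0.05), bars are list medians, and HXK2 and PGM2 stand in 2 lists each. The glucose repression list spreads from -0.57 to 1.74 around a median of -0.09, and all 12 SWI/SNF genes lie between -0.58 and 0.29. MAL31 is drawn filled, although it entered the fit only through its Present calls on quinine arrays.

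Of the 20 genes that set glucose repression of SUC2 and GAL genes, 4 were higher and 1 was lower at an unadjusted p under 0.05, with 0 past the adjusted threshold and a median log2 fold change of -0.09. These 5 of 20 stand beside 18.3% of all genes at that threshold, in either direction, or 6.32% higher and 12% lower. The 3 genes of the Mig repressor family were among the higher ones. MIG1, whose product binds the SUC2 and GAL4 promoters, had signals of 1021 and 666 in quinine samples, against 565 and 367 in control samples. MIG2 had signals of 1999 and 858 in quinine samples, against 630 and 244 in control samples. MIG3 had signals of 686 and 411 in quinine samples, against 336 and 133 in control samples, where 1 of 2 arrays was called Present. In each of the 3, replicate 1 was higher than replicate 2 in both groups, and the quinine arrays lay above the control arrays. The 3 Mig repressor genes and SUC2 and GAL4 thus all had positive log2 fold changes. The repressor genes NRG1 and NRG2 of the same list had negative ones, -0.49 ± 0.32 for NRG1 and -0.17 ± 0.18 for NRG2 (SE). Both overlapped between groups. HXK2, named above, was the fourth higher gene at that threshold. The lower one was ELM1, for a kinase that can activate Snf1, with signals of 127 and 136 in quinine samples, against 200.5 and 190.5 in control samples. The kinase gene SNF1 and its partner SNF4 overlapped between groups, at log2 fold changes of -0.03 ± 0.19 for SNF1 and 0.11 ± 0.20 for SNF4 (SE).

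In the SWI/SNF chromatin remodelling complex, found through mutants that fail to express SUC2, 2 of 12 genes had a positive log2 fold change and 10 a negative one, with a median of -0.13. Over all genes, 46.7% had a positive log2 fold change. Of the 12, 0 were higher and 1 was lower at an unadjusted p under 0.05, against 6.32% and 12% of all genes. The lower gene was ARP7, for an actin-related subunit shared with another remodelling complex. Its signals were 312 and 392 in quinine samples, against 459 and 596 in control samples. In the Mediator tail and kinase module, which includes GAL11, 0 of 9 genes had an unadjusted p under 0.05, beside 18.3% of all genes. The median of that list, which holds the Gal4 partner GAL11, was -0.03. The log2 fold change of GAL11 was -0.03 ± 0.17 (SE), and the highest change in that list was that of SSN8, for the cyclin of the kinase module, at 0.46 ± 0.20 (SE). In these 2 lists, 0 genes passed the adjusted threshold in limma.

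Of 11 listed genes for the uptake and splitting of other alpha-glucosides, which can include sucrose, 3 were tested. The permease gene MAL11 had signals of 278 and 219 in quinine samples, against 106 and 72.2 in control samples, a fold of 2.83. MAL31, also a permease gene, had signals of 458 and 419 in quinine samples, against 164.5 and 120 in control samples, where neither array was called Present. Set against that control signal as a ceiling, the point estimate for MAL31 was at least 3.12-fold, with no allowance for the spread between arrays. The adjusted p of MAL11 was 0.0779 in limma. MAL31 entered the fit only through its Present calls on quinine arrays, where it was higher, so no p value is given for it. The isomaltase gene IMA1 had a log2 fold change of 0.44 ± 0.23 (SE).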

How the data were processed

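Each of 4 yeast samples gave 8 ug of total RNA for an Affymetrix array of the Yeast Genome S98 design, per the labels. The authors deposited linear signal intensities, 1 per probe set and array. MAS5 is named, with no role or version, in the submitters' processing notes, and no source used here gives the scaling between arrays. The authors' table adds group mean intensities, standard errors and signed folds with bounds, taken here as scores as deposited by the authors, and Present calls, deposited as a percent of each group's arrays.

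Names and gene order came from the reference gene table of assembly R64. A single open reading frame of that table was named by 5291 of 7519 probe sets, of which 5218 were Present on at least 2 arrays. The brightest was used per gene, leaving 5130. Log2 signals, with no pseudocount, went into limma 3.58.1 (R 4.3.3), using lmFit and trended eBayes on 2 residual and 3.86 prior degrees of freedom. P values were adjusted by Benjamini-Hochberg over all genes. The fit was also run on simulated arrays with independent noise. Those lack the correlation of replicate differences seen between the groups here, so that run does not check the p values against it. Folds compare geometric means. The number of arrays limits the precision. Where a gene was Present on neither array of a group, its level there was raised to that array's lowest signal of a probe set Present on both, if that was larger, and the fold is written as at least.

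All 8 members were named. From each other list, up to 4 genes with an unadjusted p under 0.05 and no overlap between groups were named, or else the gene with the largest change. Further names were picked with their values in view. The members and lists were chosen with earlier results of these data known.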

Additional observations from a re-analysis of the deposited data

How the results depend on the processing

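All 7 tested members kept the sign of their log2 fold change in each of the alternatives in which they were fitted. Most of this was fixed in advance. None of the 7 overlapped between groups, so leaving out 1 array could not change a sign. The filters, the variance prior, the probe set rules and the replicate block described below left each log2 fold change as it was. No member passed an adjusted p of 0.05 in limma with the other filters, scalings, pseudocount, variance prior or probe set rules, where the adjusted p lay between 0.0620 and 0.158 for GAL4 and between 0.102 and 0.228 for SUC2. With 1 array left out, 0 to 1 members passed and 2 had an unadjusted p under 0.05, and over all genes 105 passed with control replicate 1 left out, 25 with control replicate 2 left out and 0 with either quinine array left out, against 1 with all arrays. Over all genes the count was 0 after quantile normalization, median centring or without a variance trend, and 2 with 50 added. The members' median was 0.34 with no filter, 0.35 with Present on all 4 arrays, 0.41 after median centring, 0.23 with 50 added, and 0.22 to 0.55 with 1 array left out. Requiring Present on all 4 arrays left 4 members in the fit, of which 4 did not overlap between groups and 1 had an unadjusted p under 0.05, as GAL3, GAL4 and GAL7 were no longer tested. In the other lists together, 12 of 54 genes had an unadjusted p under 0.05, beside 18.3% of all genes, and 5 to 18 with 1 array left out, the 5 without quinine replicate 1.

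The replicate numbers are shared between groups, but the labels do not say that they pair samples. The differences between replicates 1 and 2 correlated between groups over genes (r = 0.62). With replicate as a block, which leaves 1 residual degree of freedom, 1458 genes passed. Of the members, 2 passed, GAL4 (adjusted p of 1.87e-10 in limma) and SUC2 (9.56e-05), and 4 had an unadjusted p under 0.05, as did 26 of 54 genes of the other lists and 1933 of all 5130 genes. With 2 numbers this is a hint from the data, not the design.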
